A study of Mus musculus with 12 samples.

Results

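A set of 10 genes that mark classical monocytes or the macrophages they become were followed in tumour-associated macrophages (TAMs) of mice treated with picrotoxin or with DMSO. They were taken by name from a table of 24781 gene rows, and 10 of 10 were found there. Ly6c2, Ccr2, Plac8, Vcan and Chil3 are the monocyte members, and Cx3cr1, Csf1r, Adgre1, Fcna and Ms4a7 are the macrophage members. The comparison asks whether blocking the ionotropic GABA receptor in the mouse shifted the balance between these genes in the TAM gate.

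Wild-type mice carried intradermal MC38 tumours, a mouse colon adenocarcinoma cell line. They were injected intraperitoneally with DMSO, the solvent, or with picrotoxin at 40 μg per mouse. Picrotoxin is a plant toxin that blocks the chloride channel of GABA type A receptors. Injections began 1 day before inoculation and were repeated every other day. Mice in the study were 2 to 5 months old and of both sexes. On day 7, 100 cells per library were sorted as CD45+CD11b+F4/80high, and 6 DMSO and 6 picrotoxin libraries were made, each numbered 1 to 6. Per the study methods each library had its own mouse, but its figure text names fewer mice than libraries, and the labels do not tie libraries to mice. The p-values therefore measure the spread between libraries, some of which may come from the same mouse, and they would then be too small. F4/80 is the protein of Adgre1, so 1 macrophage member also set the sort.

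Classical monocytes with high Ly6C leave the bone marrow through the chemokine receptor CCR2 and enter inflamed tissue and tumours. As they mature into macrophages they lose Ly6C and CCR2 and gain the fractalkine receptor CX3CR1 and F4/80. The CSF1 receptor is present on monocytes already and stays on macrophages. In tumours this path supplies many of the macrophages, and intermediate cells carry markers of both ends.

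Each library held 201697 to 309617 molecules, counted by molecular barcodes, and 9846 to 10866 genes. The 30 pairs of libraries within a group differed by more than counting noise, with chi-square per degree of freedom from 1.23 to 3.15, so no pair looked like a single library deposited again. This does not show that libraries came from different mice. No batch is named in the labels. Numbers 1 and 2 were read apart from numbers 3 to 6, a split chosen with earlier results known, and values within replicates 3 to 6 stand beside the members. Fibroblast and matrix transcripts were high in some DMSO libraries, and their values stand beside the members compared with them.

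Csf1r, Adgre1, Ms4a7 and Cx3cr1 were read in 12 of 12 libraries, with no fewer than 46 molecules each. Of these, Adgre1 encodes a protein that set the gate. The monocyte members Ly6c2, Ccr2, Plac8 and Vcan were also read in 12 of 12 libraries. Fcna, which encodes the lectin ficolin A of the complement system, was nearly absent. It had 3 molecules in DMSO replicate 5, 1 in picrotoxin replicate 3, 1 in picrotoxin replicate 5 and 0 in the other 9 libraries. Its mean was under the limit for testing, so 9 of the 10 members were tested. A count of 0 in a library allows a share of up to 0.000969% to 0.00149% (3 counts of its total, counting error only).

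Levels per length gave the same order of members in both groups. As normalised molecules per kilobase of the longest annotated transcript in DMSO libraries, Ms4a7 was at 57.3 ± 6.51, Csf1r at 45.5 ± 6.54 and Ccr2 at 36.4 ± 7.75 (SD, n = 6). Adgre1 followed at 21.8 ± 4.43, Plac8 at 18.4 ± 3.43 and Cx3cr1 at 15.9 ± 2.81 on the same scale. Ly6c2 was at 8.07 ± 2.06, Chil3 at 2.25 ± 2.01, Vcan at 0.929 ± 0.700 and Fcna at 0.298 ± 0.729. The receptor that brings monocytes in was thus read at a level per length close to that of Csf1r. By the overlap of mean ± SD, the neighbours Ccr2 and Adgre1, Cx3cr1 and Ly6c2, and Ly6c2 and Chil3 stood apart in DMSO libraries, and the other 6 neighbouring pairs did not. In picrotoxin libraries Ms4a7 at 61.8 ± 6.38 also stood apart from Csf1r at 46.3 ± 2.13 per kilobase (SD, n = 6). There Ly6c2 at 7.80 ± 2.12 and Chil3 at 5.59 ± 2.06 per kilobase overlapped (SD, n = 6), while Chil3 stood apart from Vcan at 0.436 ± 0.334. Oligo-dT priming of fragmented RNA favours 3′ ends, so molecule counts need not rise with length, and the divisor can set this order. Without length, DMSO means were 214.1 normalised molecules for Csf1r, 208.6 for Ccr2 and 206.7 for Ms4a7. Plac8 was at 22.6 and Ly6c2 at 21.6. Vcan at 11.5 ± 8.69 then had a higher mean than Chil3 at 3.47 ± 3.09 (SD, n = 6).

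No member passed the test across genes. With edgeR, 0 of 9 tested members had an adjusted p under 0.05, against 0.0522% of all 9580 tested genes (0.0313% higher and 0.0209% lower with picrotoxin). At an unadjusted p under 0.05, 2 of 9 members were called, Chil3 higher and Vcan lower with picrotoxin, against a background of 3.65% higher and 4.11% lower. DESeq2 also gave 0 of 9 adjusted and the same 2 of 9 unadjusted, against 3.82% of all genes (1.77% higher and 2.05% lower), and limma-voom gave 0 adjusted and 3 unadjusted, with Ccr2 the additional gene, against 0.0313% and 7.75% of all genes (4.23% higher and 3.52% lower at the unadjusted p). The ranges of the groups overlapped for 10 of 10 members; they were separate for 0.386% of tested genes.

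Normalised values are molecules divided by the size factor of the library. The DNA before the start of 4 monocyte members is printed here. Ly6c2 and Plac8 were taken for the highest rho of the member pairs, which did not pass after adjustment (permutation test, adjusted p = 0.0832). Vcan and Chil3 were taken for the lowest p-values of the members. The 250 bases before each RefSeq start are shown on the strand of the gene (GRCm38.p6, minus strand for all 4), at chr15:75111972-75112221, chr5:100572206-100572455, chr13:89742513-89742762 and chr3:106167565-106167814 in this order. Capitals mark GAGGAA or its reverse TTCCTC, the core letters that the myeloid factor PU.1 can bind, with both strands searched.
Ly6c2: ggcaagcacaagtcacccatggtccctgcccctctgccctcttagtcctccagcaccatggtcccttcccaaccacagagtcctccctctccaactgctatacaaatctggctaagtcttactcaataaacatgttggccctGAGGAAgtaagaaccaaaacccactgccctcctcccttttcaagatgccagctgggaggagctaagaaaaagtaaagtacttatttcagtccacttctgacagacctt
Plac8: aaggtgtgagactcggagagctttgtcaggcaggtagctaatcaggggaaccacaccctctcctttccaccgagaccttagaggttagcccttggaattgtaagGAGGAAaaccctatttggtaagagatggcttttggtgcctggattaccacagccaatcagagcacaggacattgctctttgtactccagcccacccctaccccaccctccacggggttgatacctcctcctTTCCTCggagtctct
Vcan: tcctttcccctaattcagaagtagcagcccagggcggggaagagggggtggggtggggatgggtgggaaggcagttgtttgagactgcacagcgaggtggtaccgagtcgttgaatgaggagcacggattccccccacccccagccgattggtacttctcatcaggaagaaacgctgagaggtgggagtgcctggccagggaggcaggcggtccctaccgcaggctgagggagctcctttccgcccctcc
Chil3: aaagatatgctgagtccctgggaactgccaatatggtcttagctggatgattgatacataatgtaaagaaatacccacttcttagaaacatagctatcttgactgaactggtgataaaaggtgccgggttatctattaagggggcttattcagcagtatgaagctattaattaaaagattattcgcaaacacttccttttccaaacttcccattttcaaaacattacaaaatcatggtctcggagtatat
Ly6c2 had 1 match, from 108 to 103 bases before the start. Plac8 had 2, at 146 to 141 and at 15 to 10 bases before it, and the windows of Vcan and Chil3 had none. Of the 8 members found in the RefSeq table, 3 held a match, the third being Fcna, against 23.3% of all 32851 promoter windows of this length. A match is letters in a window and not evidence of binding.

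Ly6c2 encodes the surface protein Ly6C that defines classical monocytes. It lies on chromosome 15 at 75108158 to 75111970, minus strand (GRCm38, as for the positions that follow). Its normalised molecules were 32.3, 18.9, 16.4, 21.3, 19.6 and 21.2 in DMSO replicates 1 to 6, and 29.5, 17.0, 17.9, 24.1, 23.0 and 13.9 in picrotoxin replicates 1 to 6. The library numbered 1 was the highest in each group, and the ranges overlapped almost fully. The log2 fold change was -0.02 ± 0.20 (SE, 95% interval -0.43 to 0.39, edgeR adjusted p = 0.994). It was 0.02 ± 0.23 within replicates 3 to 6 (SE). Over all libraries, folds below 0.743 or above 1.31 lay outside the interval. Ly6c2 shares 822 bases at 97.57% identity with Ly6c1, its close paralogue, so reads of the pair could have been exchanged. Ly6c1 itself had 2.58 ± 1.07 normalised molecules in DMSO and 1.16 ± 1.12 with picrotoxin (SD, n = 6).

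Ccr2, the receptor for CCL2 (chromosome 9, 124101950 to 124113557, plus strand), was the most abundant monocyte member. It ran from 159.8 over a median of 193.5 to 275.5 normalised molecules in DMSO libraries, and from 178.8 over 240.2 to 316.0 in picrotoxin libraries. Picrotoxin values lay above the DMSO mean in 5 of 6 libraries, and picrotoxin replicate 1 was the exception. The log2 fold change was 0.24 ± 0.12 (SE, 95% interval -0.01 to 0.50, unadjusted p = 0.0599, edgeR adjusted p = 0.678). Among libraries numbered 1 and 2 the DMSO mean was 220.2 and the picrotoxin mean 202.5 normalised molecules (n = 2 each). Among those numbered 3 to 6 the means were 202.9 and 266.7 (n = 4 each), a log2 fold change of 0.41 ± 0.13 (SE, edgeR adjusted p = 0.197). Without the 3 DMSO libraries highest in matrix markers, a choice made after seeing the data, it was 0.03 ± 0.13 (SE). The part of these libraries in the Ccr2 value was not tested.

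Plac8, a small cysteine-rich protein of monocytes and granulocytes (chromosome 5, 100553725 to 100572245, minus strand), had medians close together and a wider range in picrotoxin libraries. DMSO replicates 1 to 6 had 23.9, 22.8, 17.4, 29.7, 19.6 and 21.97 normalised molecules, and picrotoxin replicates 1 to 6 had 28.6, 21.2, 12.6, 25.1, 32.2 and 8.57. The lowest and the highest of the 12 libraries were both picrotoxin libraries. The coefficient of variation was 18.6% with DMSO and 43.0% with picrotoxin, a difference that was not tested. This gave a log2 fold change of -0.06 ± 0.22 (SE, 95% interval -0.51 to 0.39, edgeR adjusted p = 0.980). Within replicates 3 to 6 it was -0.17 ± 0.28 (SE).

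Vcan encodes versican, a matrix proteoglycan made by classical monocytes and also by fibroblasts (chromosome 13, 89655312 to 89742509, minus strand). DMSO replicates 1 to 6 had 2.08, 8.94, 27.7, 10.2, 13.1 and 7.32 normalised molecules, and picrotoxin replicates 1 to 6 had 2.76, 3.19, 3.15, 12.04, 9.20 and 2.14. DMSO replicate 3 stood highest and DMSO replicate 1 lowest of all 12, and 4 picrotoxin libraries lay under 3.2. The log2 fold change was -1.06 ± 0.42 (SE, 95% interval -1.90 to -0.21, unadjusted p = 0.0158, edgeR adjusted p = 0.495). Picrotoxin values lay below the DMSO mean in 5 of 6 libraries. Within replicates 3 to 6 the log2 fold change was -1.03 ± 0.41 (SE, edgeR adjusted p = 0.383).

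The Vcan difference moved with the libraries included. Without DMSO replicate 3 it was -0.64, with an unadjusted p of 0.117 in edgeR. In fits that each dropped 1 library, the unadjusted p stayed under 0.05 in 11 of 12 fits with edgeR and in 6 of 12 with DESeq2. The spread between libraries was also wide for the abundance of Vcan, with a biological coefficient of variation of 0.360 against 0.156 for the trend of all genes at that level. Gm16318 and Gm4117 overlap Vcan on the opposite strand, and whether counting used strand was not stated.

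Fibroblast and matrix markers were set beside Vcan, and their correlation with it did not pass after adjustment. The 12 listed markers, among them the collagens Col3a1 and Col1a1, summed to 17, 17, 218, 33, 813 and 146 molecules in DMSO replicates 1 to 6, and to 37, 18, 9, 59, 51 and 18 in picrotoxin replicates 1 to 6. Of the 12, 11 were read in at least 1 library and 9 were tested. In edgeR 8 of the 9 were lower with picrotoxin at an unadjusted p under 0.05, against 4.11% of all genes, with 0 past the adjusted threshold. DESeq2 called 3 lower, against 2.05% of all genes, and gave no p-value for Col1a1, Col1a2 and Postn. DMSO replicate 5 held 195, 106 and 23 molecules of these 3 genes, against at most 4, 7 and 1 in any other library. With limma-voom 2 of 9 were lower, against 3.52% of all genes. Without the 3 DMSO libraries highest in these markers, edgeR tested 6 and called 0 at an unadjusted p under 0.05. Their median log2 fold change was then 0.87, though the markers themselves chose which DMSO libraries were left out. The summed share of the 12 markers was 0.0773% ± 0.111 in DMSO and 0.0141% ± 0.00905 with picrotoxin (SD, n = 6, exact permutation p = 0.145, two-sided). The difference of -0.0632 percentage points was -0.0200 without DMSO replicate 5. Over the 12 libraries, log2 Vcan and the log2 share had Pearson r = 0.72 (permutation p = 0.0082, adjusted over 9 members 0.0724) and Spearman rho = 0.66 (permutation p = 0.0224, adjusted 0.101). Without the 2 libraries of the most extreme share r was 0.57, and within replicates 3 to 6 it was 0.74 (n = 8). Vcan had, with a matrix score added as covariate, a log2 fold change of -0.59 ± 0.44 (SE, edgeR adjusted p = 0.922), and without the 3 DMSO libraries highest in the markers it was -0.42 ± 0.47 (SE). These relations were examined after seeing the data, and whether Vcan molecules came from other cells in the gate was not tested. The sort was for CD45 and CD11b, which fibroblasts lack, and whether other cells or their RNA were carried along was not tested. In sorted pools of cells, fewer cells of a type and less RNA per cell cannot be told apart.

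Chil3 (Ym1), a chitinase-like protein secreted by monocytes and by alternatively activated macrophages, lies on chromosome 3 at 106147554 to 106167564, minus strand. DMSO replicates 1 to 6 had 0, 4.96, 5.12, 1.86, 0.818 and 8.06 normalised molecules, and picrotoxin replicates 1 to 6 had 7.37, 7.43, 8.41, 7.02, 14.95 and 6.43. Thus 5 of 6 DMSO libraries lay below the lowest picrotoxin library, and DMSO replicate 6 was inside the picrotoxin range. The 0 of DMSO replicate 1 allows a share of up to 0.00137% (3 counts of the total). The log2 fold change was 1.22 ± 0.41 (SE, 95% interval 0.38 to 2.06, unadjusted p = 0.00584, edgeR adjusted p = 0.398), higher than the DMSO mean in 6 of 6 picrotoxin libraries. These values rest on 24 molecules in all DMSO and 49 in all picrotoxin libraries.

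The Chil3 difference kept its sign in every alternative that gave it a value, 23 in all, with a log2 fold change from 0.99 to 1.83 and an adjusted p from 0.157 to 0.99985. Dropping 1 library at a time, the unadjusted p stayed under 0.05 in 12 of 12 fits with edgeR and in 11 of 12 with DESeq2, which lost it without picrotoxin replicate 5. Within replicates 3 to 6 the log2 fold change was 1.15 ± 0.46 (SE, edgeR adjusted p = 0.380). Over the 12 libraries the correlation of Chil3 with the matrix share was r = -0.20 (permutation p = 0.547) and rho = -0.01 (permutation p = 0.973). With the matrix score as a covariate its log2 fold change was 1.20 ± 0.47 (SE). Chil3 shares 126 bases at 96.83% identity with Chil4 and Gm6522, so some molecules could belong to these.

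Thus the pair of members with an unadjusted p under 0.05 were both monocyte members, and they pointed in opposite directions, as the plots by library and of fold changes show.

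**Figure D1:**
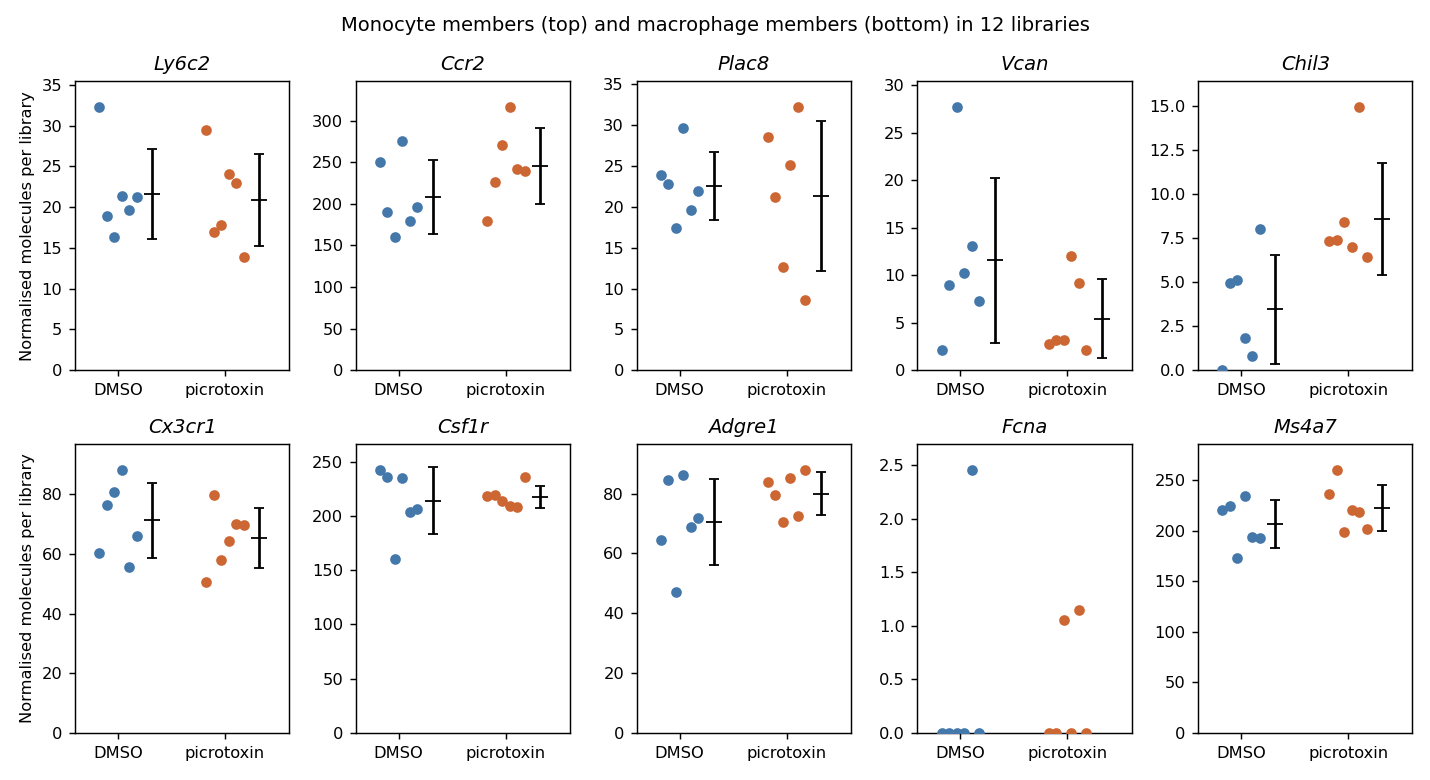
Normalised molecules (vertical axis, from 0) of the 10 members in 6 DMSO and 6 picrotoxin libraries. Points are libraries in the order of replicates 1 to 6, and bars give the mean ± SD of 6 libraries, left out for Fcna. Groups overlap in every panel, and for Chil3 5 of 6 DMSO libraries lie below the lowest picrotoxin library.

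**Figure D2:**
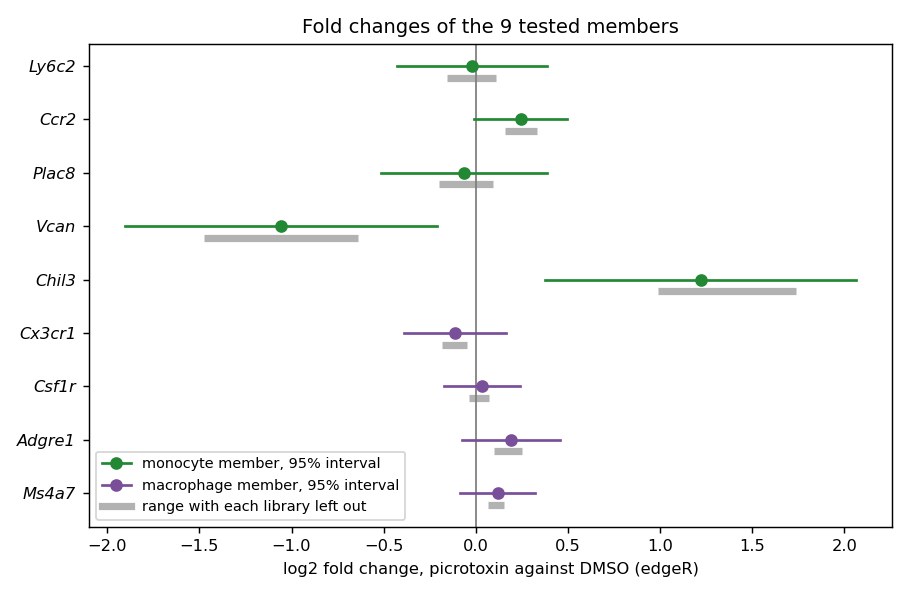
Log2 fold change of picrotoxin against DMSO from edgeR (horizontal axis) for the 9 tested members, with the 95% interval as a thin line and the range over 12 fits that each left out 1 library as a grey bar. The intervals of Vcan and Chil3 exclude 0 before adjustment, and those of the other 7 include it.

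Of the 4 tested macrophage members, 0 had an unadjusted p under 0.05 in edgeR or DESeq2. Cx3cr1, the fractalkine receptor (chromosome 9, 119901616 to 120069879, minus strand), ran from 55.6 over a median of 71.2 to 88.1 normalised molecules in DMSO libraries, and from 50.7 over 66.9 to 79.6 in picrotoxin libraries. Of the 6 picrotoxin libraries 5 were below the DMSO mean, within overlapping ranges. The estimated log2 fold change was -0.11 ± 0.14 (SE, 95% interval -0.39 to 0.16, edgeR adjusted p = 0.904). It was -0.12 within replicates 3 to 6 and ran from -0.18 without DMSO replicate 5 to -0.05 without picrotoxin replicate 1. The annotated span of Cx3cr1 overlaps 3 genes of the same strand and 6 of the opposite strand, which the deposited counts may split in a way that was not stated.

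Csf1r, the receptor for CSF1 and IL-34 on which most macrophages depend, lies on chromosome 18. It had 242.4, 236.3, 160.8, 234.7, 203.7 and 206.5 normalised molecules in DMSO replicates 1 to 6, and 218.4, 219.8, 213.5, 209.7, 208.2 and 235.7 in picrotoxin replicates 1 to 6. DMSO replicate 3 was the lowest of the 12, and the picrotoxin libraries lay close together. Its coefficient of variation was 14.4% with DMSO and 4.61% with picrotoxin, a difference that was not tested. Its log2 fold change was 0.03 ± 0.10 (SE, 95% interval -0.17 to 0.24, edgeR adjusted p = 0.974). Among libraries numbered 1 and 2 the DMSO mean was 239.4 and the picrotoxin mean 219.1 (n = 2 each), and among those numbered 3 to 6 the order was the other way, at 201.4 and 216.8 (n = 4 each). Within the latter the log2 fold change was 0.12 ± 0.12 (SE). Its sign turned with scaling by library totals (-0.02), with the matrix score as a covariate (-0.06), without DMSO replicate 3 (-0.04) and without the 3 DMSO libraries highest in matrix markers (-0.13).

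Csf1r was lower in libraries with a higher matrix share. Over 12 libraries Pearson r was -0.69 (permutation p = 0.0161, adjusted over 9 members 0.0724) and Spearman rho was -0.82 (permutation p = 0.00167, adjusted 0.0150). Without the 2 libraries of the most extreme share r was -0.60, and within replicates 3 to 6 it was -0.61 (n = 8). Ms4a7 had r = -0.58 (permutation p = 0.0478, adjusted 0.143), and this was -0.19 without those 2 libraries. The other 5 members beside Vcan, Csf1r, Ms4a7 and Chil3 had an unadjusted permutation p from 0.0644 to 0.822. The lowest was that of Ccr2, with r = -0.55. For Ccr2 r was -0.12 without those 2 libraries and -0.75 within replicates 3 to 6 (n = 8). The part of the matrix transcripts in the level of Csf1r was not tested.

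**Figure D3:**
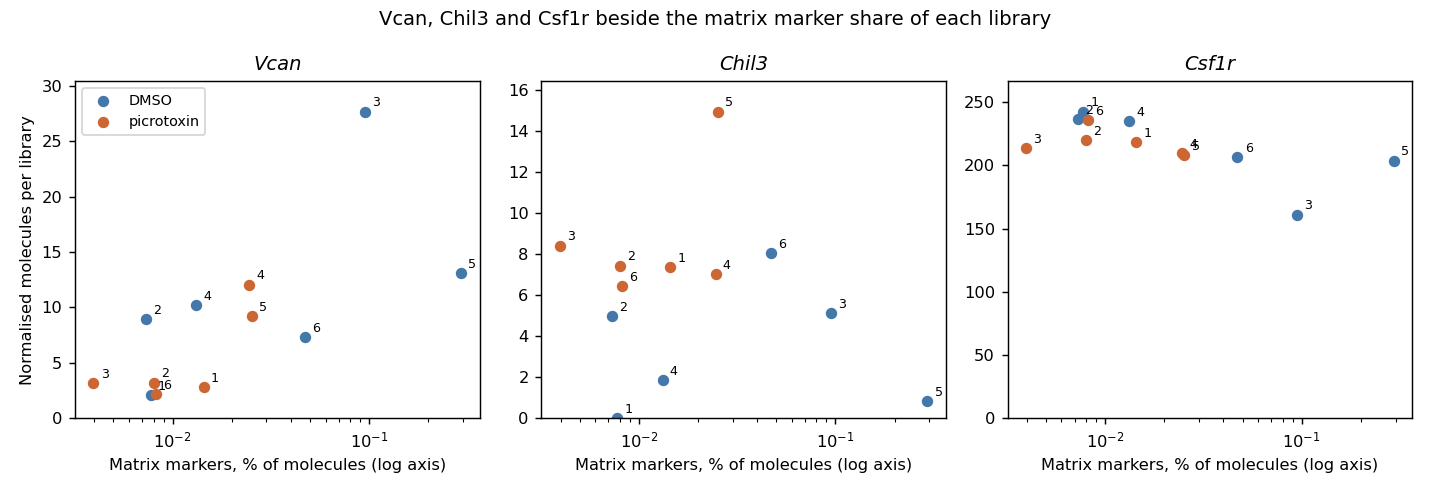
Normalised molecules of Vcan, Chil3 and Csf1r (vertical axes, from 0) against the summed share of fibroblast and matrix markers in percent of molecules (horizontal log axis), 1 point per library with its replicate number. DMSO replicates 3, 5 and 6 hold 146 to 813 marker molecules, more than any picrotoxin library.

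Adgre1 encodes F4/80 (chromosome 17, 57358691 to 57483527, plus strand), whose protein was high in all sorted cells by the gate. It ran from 47.1 over a median of 70.2 to 86.3 normalised molecules in DMSO libraries, and from 70.5 over 81.8 to 87.9 in picrotoxin libraries. Picrotoxin values were above the DMSO mean in 5 of 6 libraries, and 3 DMSO libraries lay below all picrotoxin libraries. Its log2 fold change was 0.19 ± 0.13 (SE, 95% interval -0.07 to 0.46, edgeR adjusted p = 0.784). It was 0.22 within replicates 3 to 6, 0.10 without DMSO replicate 3 and 0.02 without the 3 DMSO libraries highest in matrix markers.

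Ms4a7, a tetraspanning membrane protein of the MS4A family found on mature macrophages (chromosome 19, 11321039 to 11336146, minus strand), had the highest level per length. Without length its DMSO mean was 206.7 normalised molecules, against 214.1 for Csf1r. It ran from 173.1 over a median of 207.2 to 234.7 normalised molecules in DMSO libraries, and from 198.7 over 219.6 to 260.1 in picrotoxin libraries. Picrotoxin replicates 1 and 2 were the highest of all libraries. The log2 fold change was 0.12 ± 0.10 (SE, 95% interval -0.08 to 0.32, edgeR adjusted p = 0.839). It was 0.10 within replicates 3 to 6, 0.07 without picrotoxin replicate 2 and -0.03 without the 3 DMSO libraries highest in matrix markers.

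The members were also summed, as a description with no test. The 5 monocyte members made up 0.116% ± 0.0197 of all molecules with DMSO and 0.127% ± 0.0200 with picrotoxin (SD, n = 6). The 5 macrophage members took 0.245% ± 0.0297 and 0.247% ± 0.0138. The ratio of monocyte to macrophage members ran from 0.396 to 0.526 in DMSO and from 0.419 to 0.663 in picrotoxin libraries, where picrotoxin replicates 3, 4 and 5 lay above all DMSO libraries. This ratio was mostly Ccr2, which made up 70.6% to 81.4% of monocyte member molecules in DMSO and 72.4% to 88.5% in picrotoxin libraries. Without Ccr2 the monocyte members summed to 56 to 80 molecules in DMSO and 29 to 74 in picrotoxin libraries.

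Pairs of members were compared across libraries. Of 36 pairs of the 9 tested members, 5 had an unadjusted permutation p under 0.05 for Pearson r over the 12 libraries, and 0 passed after adjustment over the 36 pairs. The share of all gene pairs that reach this p in the same libraries was not computed, so the count of pairs is not a result about the members. Ly6c2 and Plac8 had the highest rho, with r = 0.71 (permutation p = 0.0104, adjusted 0.0959) and rho = 0.81 (permutation p = 0.00231, adjusted 0.0832), and r was 0.84 without the 2 libraries farthest from the median of Ly6c2. Their r to Ccr2 was 0.16 for Ly6c2 and 0.03 for Plac8. Csf1r, Adgre1 and Ms4a7 formed the other 3 positive pairs. Csf1r and Adgre1 had r = 0.78 (permutation p = 0.0124, adjusted 0.0959) and rho = 0.51 (permutation p = 0.0938, adjusted 0.563). For Csf1r and Ms4a7 r was 0.69 and for Adgre1 and Ms4a7 0.70, each with an adjusted permutation p of 0.0959. Without the 2 libraries farthest from the median of the first gene, r was 0.80 for Csf1r and Adgre1, 0.46 for Csf1r and Ms4a7 and 0.58 for Adgre1 and Ms4a7. Cx3cr1 had r of -0.02, 0.01 and 0.16 to these 3 genes. Vcan and Csf1r ran in opposite directions, with r = -0.73 (permutation p = 0.00515, adjusted 0.0959) and rho = -0.69 (permutation p = 0.0166, adjusted 0.203), and r was -0.37 without the 2 libraries farthest from the median of Vcan. With a prior count of 0.5 in place of 2 this last r was -0.61.

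Within replicates 3 to 6 (n = 8) 2 pairs passed after adjustment. These were Csf1r and Adgre1 with r = 0.95 and Ly6c2 and Plac8 with r = 0.90, each with an adjusted exact permutation p of 0.0491. By Spearman rho 0 of 36 pairs passed there, and the share among all gene pairs was not computed there either. DMSO replicate 3 held the lowest value of Ccr2, Csf1r, Adgre1 and Ms4a7 among the 12 libraries and the highest of Vcan. No p was computed within replicates 1 and 2, which hold 4 libraries.

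**Figure D4:**
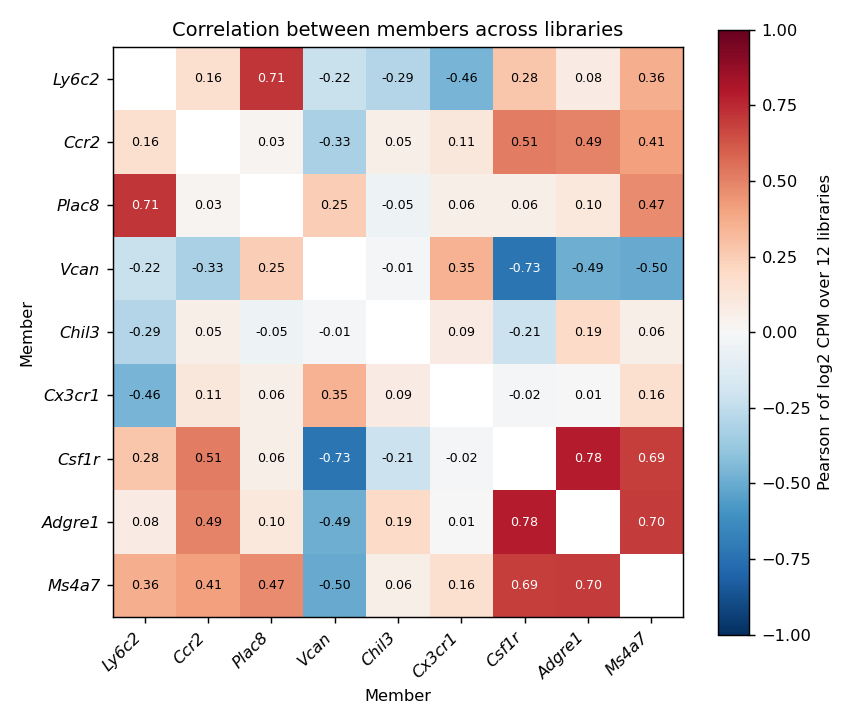
Pearson r of log2 CPM over 12 libraries for each pair of the 9 tested members, from -1 in blue to 1 in red. Ly6c2 with Plac8, and Csf1r, Adgre1 and Ms4a7 with each other, are the 4 strongest positive cells, and Vcan with Csf1r is the strongest negative one.

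Among 3734 other genes with a mean of at least 10 normalised molecules, those whose log2 level over the 12 libraries was most like a member are given as a description. Csf1r was most like Cyba (r = 0.95), a subunit of the phagocyte oxidase, and Tgm2 (r = 0.93), a transglutaminase. Adgre1 was most like the lysosomal protease gene Ctsb (r = 0.89) and AI504432 (r = 0.85), and Ms4a7 like Lgmn (r = 0.86), another lysosomal protease gene, and Ddx5 (r = 0.85), an RNA helicase gene. Cx3cr1 was most like Herc1 (r = 0.90) and Pnrc2 (r = 0.86). Ly6c2 was most like Atp6v0d1 (r = 0.95), a subunit of the vacuolar proton pump, and Rnf126 (r = 0.84), and Plac8 like the NF-κB subunit gene Rela (r = 0.88) and Abcc1 (r = 0.85). Ccr2 was most like the integrin gene Itgb2 (r = 0.87) and Cmip (r = 0.84). These were the highest of many values, over 12 libraries that also share differences in depth and treatment.

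Other genes of the same biology were read from 6 lists, and 64 of them were tested. In edgeR 0 of 64 had an adjusted p under 0.05, and 13 had an unadjusted p under 0.05, while DESeq2 gave 0 and 8 and limma-voom 0 and 15. Without the 3 DMSO libraries highest in matrix markers edgeR gave 0 and 7 of 63. The background of unadjusted calls was 7.77% of all tested genes in edgeR (3.65% higher and 4.11% lower), 3.82% in DESeq2 and 7.75% in limma-voom.

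Further classical monocyte genes lay on both sides of 0. Of 15 listed, 12 were tested, with a median log2 fold change of -0.03 against -0.01 over all tested genes. At an unadjusted p under 0.05 DESeq2 called 0, and edgeR called 1 higher, against 3.65% of all genes. This was Ly6i, a Ly6 family gene, with 8.35 ± 2.70 normalised molecules in DMSO and 12.3 ± 3.21 with picrotoxin (SD, n = 6), a log2 fold change of 0.56 ± 0.26 (SE, edgeR adjusted p = 0.621). Mcemp1 had a log2 fold change of 0.86, and Gsr (glutathione reductase) and Ly6c1 had -0.73 and -1.01, none at an unadjusted p under 0.05. Of the 8 genes of non-classical monocytes, which patrol vessels, 6 were tested, and 0 had an unadjusted p under 0.05 in edgeR or DESeq2. The nearest was Spn (CD43), with 9.28 ± 4.04 and 5.66 ± 2.08 normalised molecules (SD, n = 6) and an estimated log2 fold change of -0.65 ± 0.33 (SE, unadjusted p = 0.0539, edgeR adjusted p = 0.654). Eno3 had a log2 fold change of -1.13, and Nr4a1, the factor that non-classical monocytes depend on, and Pou2f2 had 0.23 and 0.29.

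Of 23 further macrophage genes, 20 were tested and 0 had an adjusted p under 0.05. A log2 fold change below 0 was found for 4 of the 20, against 50.8% of all tested genes, and the median was 0.17. Without the 3 DMSO libraries highest in matrix markers 11 of 20 were above 0 and the median was 0.03. At an unadjusted p under 0.05, 3 of 20 were higher and 0 lower, against 3.65% and 4.11% of all genes, and DESeq2 gave 1 higher. Mrc1, the mannose receptor CD206, had 64.4 ± 26.7 normalised molecules in DMSO and 90.3 ± 18.2 with picrotoxin (SD, n = 6), a log2 fold change of 0.48 ± 0.18 (SE, edgeR adjusted p = 0.428). Trem2, a lipid-sensing receptor of macrophages that was named after its value was seen, had a log2 fold change of 0.32 ± 0.16 (SE, edgeR adjusted p = 0.632). Without those 3 libraries Mrc1 was at 0.47 and Trem2 at 0.15. On the other side Cd68 had -0.11 and the chemokine gene Pf4 -0.13. Within the Ms4a family 5 of 8 were tested, and 1 was higher at an unadjusted p under 0.05, against 3.65% of all genes. This was Ms4a6d, with 127.3 ± 19.9 and 155.6 ± 17.2 normalised molecules (SD, n = 6) and an estimated log2 fold change of 0.30 ± 0.11 (SE, edgeR adjusted p = 0.479). It was 0.17 without the 3 DMSO libraries highest in matrix markers.

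The list of ligands and partner receptors held unadjusted calls in both directions, with the ligands lower and the receptors higher. Of 14 ligands and partner receptors 11 were tested. At an unadjusted p under 0.05 DESeq2 gave 1 higher and 3 lower, against 1.77% and 2.05% of all genes. With edgeR 2 were higher and 4 lower with picrotoxin, against 3.65% and 4.11% of all genes. The lower ones were Ccl8, Ccl2 and Ccl7, genes of monocyte chemoattractant proteins, and Csf1, the ligand of Csf1r. Ccl8 had 19.3 ± 8.01 normalised molecules in DMSO and 9.92 ± 6.09 with picrotoxin (SD, n = 6), a log2 fold change of -0.99 ± 0.30 (SE, edgeR adjusted p = 0.312). Ccl2, the main CCR2 ligand, had 178.5 ± 36.4 and 143.1 ± 17.2 (SD, n = 6), a log2 fold change of -0.31 ± 0.12 (SE, edgeR adjusted p = 0.495), with 6 of 6 picrotoxin libraries below the DMSO mean. DMSO replicates 1 and 2 were the highest for Ccl2, at 224.7 and 223.4. Ccl7 at -0.34 and Csf1 at -0.91 were named after their values were seen, and DESeq2 gave Csf1 an unadjusted p of 0.0839. Csf1 was highest in DMSO replicates 5 and 3, which were also highest in matrix markers, at 10.6 and 9.22 normalised molecules. Without the 3 DMSO libraries highest in those markers its log2 fold change was -0.47 ± 0.55 (SE), while Ccl8 was at -1.03 ± 0.32 and Ccl2 at -0.48 ± 0.13. Within replicates 3 to 6 Ccl2 was at -0.13 ± 0.12 and Ccl7 at -0.27 ± 0.16 (SE). There Ccl8 was at -0.81 ± 0.32 and Csf1 at -0.84 ± 0.47 (SE). The higher genes were the chemokine receptors Ccr1, with a log2 fold change of 0.31 ± 0.12 (SE, edgeR adjusted p = 0.479), and Cxcr4, with 0.34 ± 0.16 (SE, edgeR adjusted p = 0.620). Without the 3 DMSO libraries highest in matrix markers they were at 0.13 and 0.25, and within replicates 3 to 6 at 0.48 and 0.31. Cx3cl1, the ligand of Cx3cr1, Il34, the other ligand of Csf1r, and Csf2 were not tested because their mean was under the limit.

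Of 11 transcription factors of monocytes and macrophages 10 were tested. In edgeR 2 were higher at an unadjusted p under 0.05, against 3.65% of all genes. Irf8, which directs monocyte development, had 121.1 ± 27.3 and 156.8 ± 16.6 normalised molecules (SD, n = 6), an estimated log2 fold change of 0.39 ± 0.13 (SE, edgeR adjusted p = 0.341). Zeb2 had a log2 fold change of 0.39 ± 0.14 (SE, edgeR adjusted p = 0.426). Without the 3 DMSO libraries highest in matrix markers Irf8 was at 0.13 and Zeb2 at 0.31, and within replicates 3 to 6 Irf8 was at 0.56 ± 0.13 (SE, edgeR adjusted p = 0.0394). Egr1 and Bhlhe40 had -0.40 and -0.37.

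**Figure D5:**
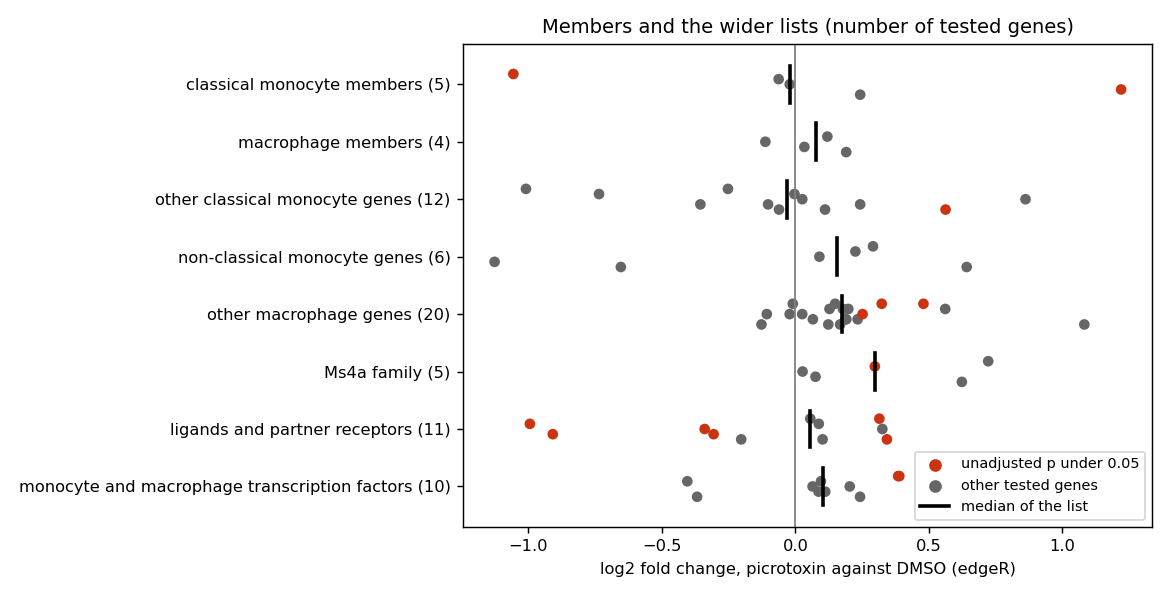
Log2 fold change of picrotoxin against DMSO from edgeR (horizontal axis) for each tested gene of the members and of 6 wider lists, with the number tested in brackets. Red points have an unadjusted p under 0.05, and black bars are the list medians, which lie between -0.03 and 0.30.

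Apart from the fibroblast and matrix markers described above, markers of other cells that the gate could hold were few. Neutrophil markers summed to 1 to 6 molecules in DMSO and 1 to 7 in picrotoxin libraries, with 6 of 9 markers, S100a9 and Ly6g among them, at 0 in all libraries. Neutrophils share Plac8 and Chil3 with monocytes. Dendritic cell markers summed to 0 to 9 and 2 to 4 molecules, B cell markers to 0 to 3 and 1 to 2, and endothelial markers to 3 to 6 and 1 to 10. T and NK cell markers summed to 0 to 1 molecules in DMSO libraries and to 0 to 23 in picrotoxin libraries, where 20 of the 23 in replicate 6 were Gzmb. Epithelial markers of the tumour line summed to 8 to 14 and 8 to 21 molecules. Of the 6 markers 4, Epcam among them, were at 0 in all libraries, and nearly all molecules were Cdh1. The sum thus follows 1 gene and does not describe a cell type. Cdh1 had a log2 fold change of 0.70 ± 0.26 (SE, unadjusted p = 0.00973, edgeR adjusted p = 0.428). For the 7 lists of other cells, the exact permutation p of the difference in summed share ran from 0.0649 to 0.885, and adjusted over the 7 from 0.419 to 0.885.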

How the data were processed

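The authors deposited a single table of whole-number molecule counts, with a row per gene symbol and a column for each of 12 libraries. Per the labels, RNA from 100 sorted cells was fragmented by heat and copied with an oligo-dT primer carrying a molecular barcode, so counts are of barcodes and not of PCR reads. Reads were mapped with STAR to mm10 (submitters' processing notes), with refFlat genes per the study methods. The handling of multi-mapping reads, strand and barcode errors was not given in the sources used here. Intervals and limits from counts of 0 cover counting error only, and 0 columns of other samples were left unused.

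Genes with a mean above 1 normalised molecule (DESeq2 size factors), 9580 of 24781, were tested for picrotoxin against DMSO with edgeR 4.0.16 in R 4.3.3 (quasi-likelihood, trimmed mean of M-values, two-sided, Benjamini-Hochberg over all tested genes). The SE was the log2 fold change divided by the square root of F. DESeq2 1.42.0 (Wald test, run on the whole table before the filter) and limma-voom 3.58.1 were alternatives. On counts simulated for this comparison over 9580 genes, edgeR recovered 9 of 78 genes with a simulated log2 change of 0.5, 21 of 56 with 1 and 54 of 66 with 2. The changed genes were drawn at random from all tested genes, so these rates are pooled over abundance and are not rates for the members. Correlations used log2 CPM with a prior count of 2 and a permutation test. Positions came from GENCODE annotation of GRCm38 and promoters from RefSeq.

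Same-numbered libraries of the groups were checked for pairing. Their deviations correlated at -0.005 to 0.126, with 1 of 6 above 0.1, so numbers were not taken as pairs.

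The members and lists were chosen with earlier results of these data known. All members were named, and from each other list up to 2 genes per direction with the smallest unadjusted p, beside the 2 genes most like each member. A gene that this rule would name is not reported here.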

Additional observations from a re-analysis of the deposited data

Results flagged for a closer look

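Single libraries were compared with the other 5 of their group by the gap to the nearest value over the range of the group. Of 36 such tests 7 passed the 95% limit. Chance passes about 1 in 20 of normally distributed values (1.8 of 36), and molecule values need not be normally distributed. Sums of a few molecules pass more easily, since a single library that differs then sets the whole range.

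Among the members, Ly6c2 stood highest in DMSO replicate 1, at 32.3 normalised molecules against 21.3 in the next library. Chil3 was highest in picrotoxin replicate 5, at 14.95 against 8.41. Fcna had 2.45 normalised molecules in DMSO replicate 5 and 0 in the other 5 DMSO libraries, which rests on 3 molecules.

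Among the marker lists, matrix markers summed to 813 molecules in DMSO replicate 5 against 218 in the next library. T and NK cell markers summed to 23 molecules in picrotoxin replicate 6 against 2, and neutrophil markers to 7 in picrotoxin replicate 2 against 3. B cell markers summed to 1 molecule in picrotoxin replicate 3 and to 2 in the other 5 picrotoxin libraries. What caused them was not tested.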

How the results depend on the processing

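The number of members with an adjusted p under 0.05 was 0 in every alternative, where 0 to 3 had an unadjusted p under 0.05. Leaving out each library, log2 fold changes ran from -0.16 to 0.11 for Ly6c2, from -0.20 to 0.091 for Plac8 and from -0.038 to 0.070 for Csf1r, with 8 of 108 such fits of the members turning sign. Of the other fits of members 101 kept sign and side of the threshold and 5 turned: Ly6c2 to 0.016 in replicates 3 to 6 alone, Csf1r to -0.021 with library totals, -0.057 with the matrix score as a covariate and -0.13 without the 3 DMSO libraries highest in matrix markers, and Ms4a7 to -0.029 without those 3, with the cause not tested. Members with an unadjusted p under 0.05 in DESeq2 numbered 1 with the replicate block and 0 with a mean above 10, which left Vcan and Chil3 untested, and 1 to 3 with each library left out. With the replicate block edgeR gave a log2 fold change of -1.02 for Vcan and 1.29 for Chil3, and no member changed its side of the threshold. In the other lists 2 genes passed with every gene of at least 1 count (Ccl8 and Mrc1), 1 with the replicate block (Mrc1) and 1 in replicates 3 to 6 alone (Irf8). In replicates 3 to 6 alone 2 pairs of members passed, among fewer samples. Scaling by library totals moved the median of all genes to -0.06. The share of epithelial markers, nearly all Cdh1, differed by 0.00297 percentage points without the Rn45s row (exact permutation p = 0.0411). In replicates 3 to 6 alone this share differed by 0.00437 (exact permutation p = 0.0286). With each library left out, differences ran from 0.00171 to 0.00308 for epithelial, from -0.0772 to -0.0200 for matrix, from -0.000445 to 0.000175 for neutrophil and from 0.000163 to 0.000420 percentage points for B cell markers. The replicates 3 to 6, matrix and Rn45s alternatives were chosen with the data seen. Depth limits Vcan, Chil3 and Fcna most, at 0 to 27 molecules per library.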
